A study of Mus musculus with 8 samples.

Results

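Replication-dependent histone genes supply most of the histone protein that packs new DNA during S phase. All rows of the deposited expression table whose symbol begins with Hist1h, Hist2h, Hist3h or Hist4h were taken, which gave 64 of 31276 genes. The rule itself uses symbols and no measured value. By histone type there were 6 genes for H1, 15 for H2A, 18 for H2B, 12 for H3 and 13 for H4. The Hist1 cluster on chromosome 13 held 51 of them, the Hist2 cluster on chromosome 3 held 9, the Hist3 cluster on chromosome 11 held 3, and Hist4h4 stands alone on chromosome 6.

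RNA-seq had been carried out on C3H10T1/2 cells, a multipotent mesenchymal cell line from C3H mouse embryo, grown in DMEM with 10% fetal bovine serum. Each of the 8 libraries came from cells stably expressing 1 FLAG-HA-tagged histone H3 transgene, and each transgene had 1 library. The H3.3 transgenes were wild type (WT), K36R, K36A, K36L, K36M and K36I, and the H3.1 transgenes were K36R and K36M. The letters give the residue that replaces lysine 36: arginine, alanine, leucine, methionine or isoleucine. H3.3 WT was the sole library with an unmutated transgene, and H3.1 WT or untransduced cells were not analysed here. The promoter of the transgene and the number of clones behind a line were not given in the sources used here. With 1 library a transgene, the libraries were also compared as classes: the K36M library of each backbone and the K36I library against the other 5, and the 2 H3.1 libraries against the 6 H3.3 libraries.

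Transcripts of these genes differ from other messenger RNAs in that they mostly end in a conserved stem-loop instead of a poly(A) tail. The stem-loop binding protein, encoded by Slbp, holds that structure, and the U7 small nuclear ribonucleoprotein guides the cut after it. The co-activator NPAT drives transcription of the clusters at the start of S phase, and the transcripts are degraded when DNA synthesis stops. Their level in a growing culture therefore follows both the share of cells in S phase and the amount made per cell, and in bulk RNA fewer S-phase cells and less histone RNA per cell cannot be told apart. Histone H3.3, by contrast, is made from H3f3a and H3f3b throughout the cell cycle.

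The stem-loop is shown because it defines the family. A match (6 paired bases opening with GG around a loop of 4 that opens with T, read from the coding strand of GENCODE M21 transcripts on GRCm38) was present in annotated transcripts of 43 of the 64 genes. The capitals mark the paired stem.
Hist1h1c, a form shared by 23 genes of H1, H2A, H2B and H3: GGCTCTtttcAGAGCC
Hist1h4d, a form shared by 7 H4 genes: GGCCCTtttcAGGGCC
Hist1h2bb, a form shared by 6 genes of H1, H2B and H3: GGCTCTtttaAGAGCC
Hist1h4b, a form shared with Hist1h4j: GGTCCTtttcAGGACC
Hist1h4i, a form shared with Hist2h4: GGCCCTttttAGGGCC
Hist1h4a alone: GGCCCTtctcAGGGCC
The copy of Hist1h1c lies at chr13:23739512-23739527 on the plus strand (GRCm38). The remaining single forms were those of Hist1h3g and Hist2h2ac. For the remaining genes no match lay within the annotated transcripts.

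Values below are normalised reads, the reads of a gene divided by the library's size factor, recovered from the deposited log2 values. Differences are on the deposited log2 scale. Where 8 values follow a gene, the first 6 are H3.3 WT, K36R, K36A, K36L, K36M and K36I and the last 2 are H3.1 K36R and H3.1 K36M. Of the 64 genes, 62 had a mean at least 1 above the lowest value of the table (about 31.0 normalised reads) and entered the tests: 6 H1, 14 H2A, 17 H2B, 12 H3 and 13 H4 genes. The 2 set apart were Hist1h2aa and Hist1h2ba, which encode the testis forms of H2A and H2B. Hist1h2aa had 0 to 2.86 normalised reads and Hist1h2ba 1.91 to 15.6.

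Across libraries, the histone genes stood lower in H3.1 K36M than anywhere else. Summed over the 62 genes, normalised reads were 386714 in H3.3 WT, 337515 in H3.3 K36R, 382711 in K36A, 374995 in K36L, 365600 in K36M, 383749 in K36I, 410798 in H3.1 K36R and 254876 in H3.1 K36M. The H3.1 K36M sum was 65.9% of that in H3.3 WT and 62.0% of that in H3.1 K36R, while H3.3 K36R reached 87.3% of H3.3 WT and the other 4 H3.3 mutants 94.5% to 99.2%. As a share of all reads the genes made up 0.427% in H3.1 K36M, 0.706% in H3.1 K36R and 0.560% to 0.663% in the H3.3 libraries. H3.1 K36M was the lowest of the 8 libraries for 51 of the 62 genes, against 20.7% of all 14215 genes tested. H3.1 K36R was the highest for 31 of 62, against 14.7% of all genes.

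**Figure D1:**
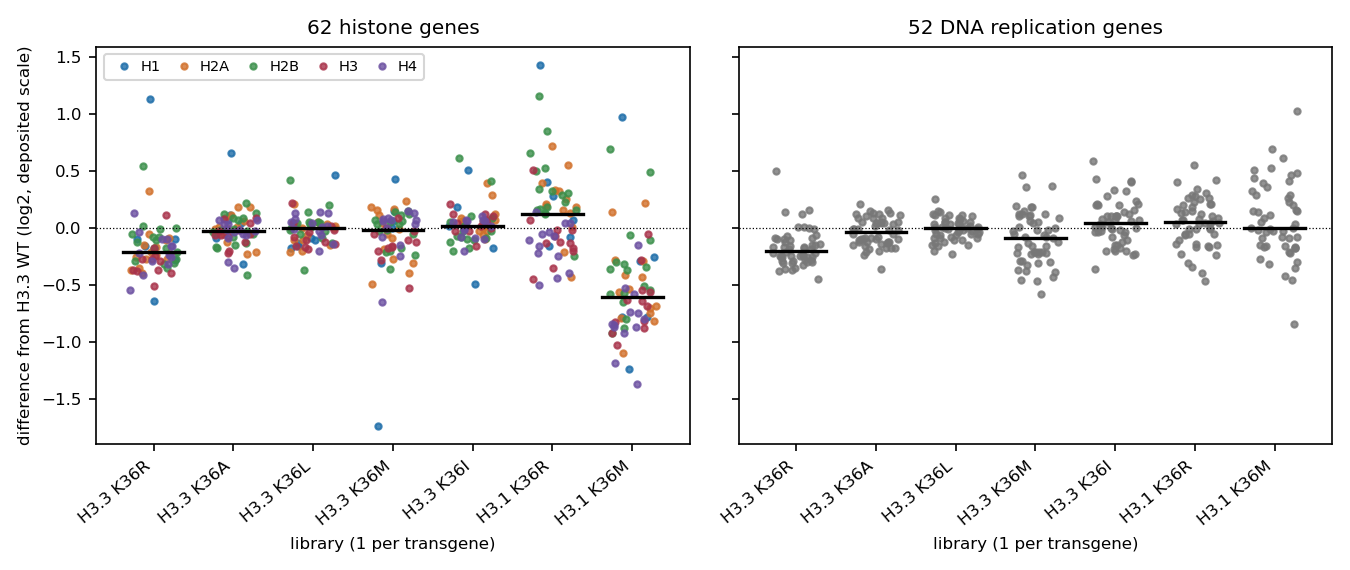
Difference from the H3.3 WT library on the deposited log2 scale (vertical axis) in each of the 7 mutant libraries (horizontal axis), for 62 histone genes coloured by type (left) and 52 DNA replication genes (right). Each point is 1 gene, the black bar is the median, and points are spread sideways for visibility. The histone genes centre on -0.60 in H3.1 K36M and the DNA replication genes on 0.00.

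The median difference of the 62 genes from H3.3 WT was -0.60 in H3.1 K36M, 0.12 in H3.1 K36R and -0.22 in H3.3 K36R. In H3.3 K36A, K36L, K36M and K36I it lay between -0.03 and 0.02. The median over all genes tested lay between -0.01 and 0.00 in each library. In H3.3 K36R, 56 of 62 histone genes were below H3.3 WT, against 49.5% of all genes. The exceptions were Hist1h1t, Hist1h2ac, Hist1h2bc, Hist1h2bk, Hist1h4i and Hist2h3c1. All 7 medians rest on 1 library a side, so no test of a single transgene was possible.

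The shortfall in H3.1 K36M was present in every histone type. Against H3.3 WT its median was -0.53 in H1, -0.55 in H2A, -0.37 in H2B, -0.66 in H3 and -0.84 in H4 genes. Against H3.1 K36R, the library with the same backbone, all 62 genes were lower, from -1.07 for Hist1h1a to -0.12 for Hist2h3c1 with a median of -0.67, while 50.8% of all genes were lower. By type these medians were -0.69 in H1, -0.67 in H2A, -0.67 in H2B, -0.61 in H3 and -0.64 in H4 genes. Against H3.3 WT the types parted in both H3.1 libraries. In H3.1 K36R, H1, H2A and H2B genes had medians of 0.17, 0.20 and 0.29 above H3.3 WT, and H3 and H4 genes had -0.12 and -0.11. The H3.1 libraries also had the fewest reads, 53199065 for K36R and 45448249 for K36M, and the part of depth in this result was not tested.

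**Figure D2:**
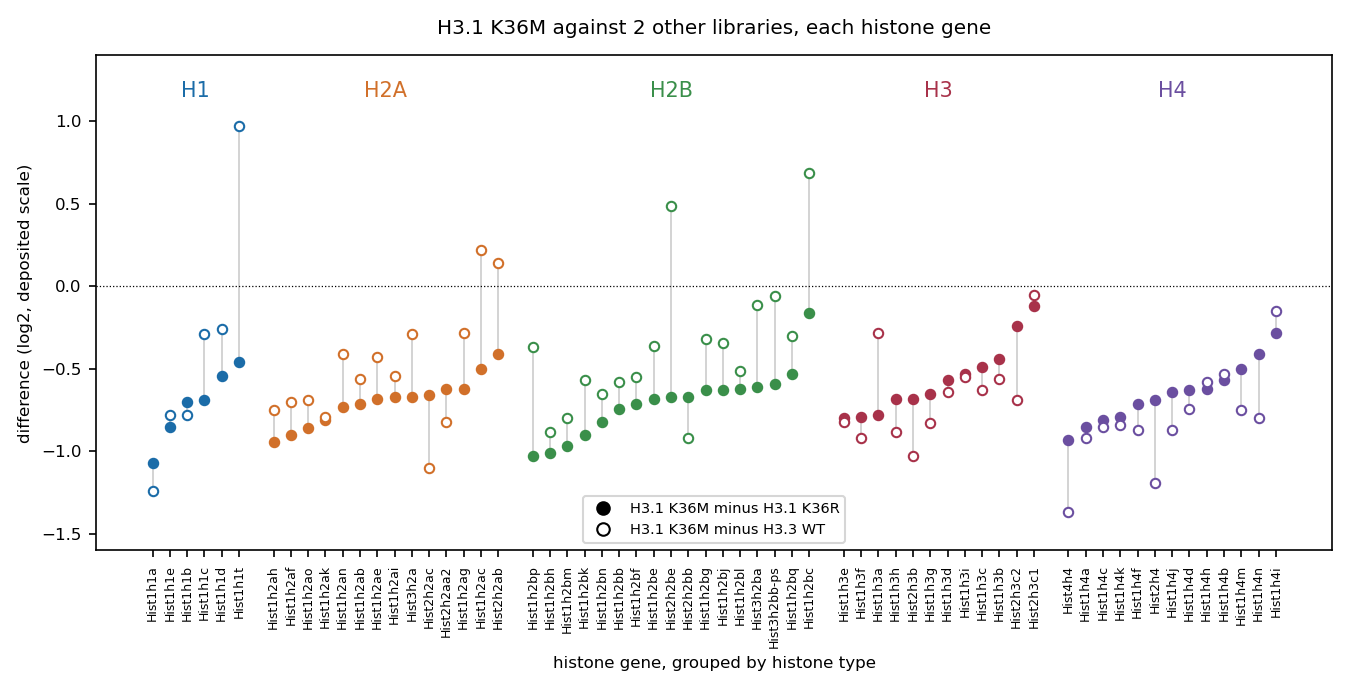
Difference of the H3.1 K36M library from H3.1 K36R (filled circles) and from H3.3 WT (open circles) on the deposited log2 scale (vertical axis) for each of the 62 histone genes (horizontal axis), grouped and coloured by type. All filled circles lie below 0, and the open circles of Hist1h1t, Hist1h2ac, Hist2h2ab, Hist2h2be and Hist1h2bc lie above it.

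H1 is the linker histone, which binds where DNA enters and leaves the nucleosome. Its most abundant genes here were Hist1h1c, Hist1h1d and Hist1h1e. Hist1h1c had 26851, 25013, 28095, 24491, 28055 and 27241 normalised reads with H3.3 and 35552 and 21961 with H3.1. Hist1h1d had 24296, 22597, 26264, 22480, 26971 and 27453 normalised reads with H3.3 and 29483 and 20307 with H3.1. Hist1h1e had 22991, 20627, 23652, 21550, 22971 and 23461 normalised reads with H3.3 and 24154 and 13355 with H3.1. In each of the 3, H3.1 K36M was the lowest library and H3.1 K36R the highest, with 6 H3.3 libraries close together between them. The difference of H3.1 K36M from H3.1 K36R was -0.69 for Hist1h1c, -0.54 for Hist1h1d and -0.85 for Hist1h1e.

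Hist1h1b and Hist1h1a, further somatic H1 genes, followed other orders. Hist1h1b had 17539, 14448, 16525, 15710, 14136 and 15470 normalised reads with H3.3 and 16601 and 10190 with H3.1. Only H3.1 K36M stood apart there, with a difference of -0.78 from H3.3 WT. Hist1h1a had 16444, 10539, 13111, 14480, 4833 and 11701 normalised reads with H3.3 and 14657 and 6909 with H3.1. It was lowest in H3.3 K36M, with a difference of -1.74 from H3.3 WT, and next lowest in H3.1 K36M, with -1.24. Hist1h1t, the testis linker histone, was scarce with 16.7, 120, 63.2, 45.8, 42.9 and 49.3 normalised reads with H3.3 and 168 and 97.3 with H3.1. It was the one H1 gene at its lowest in H3.3 WT, and H3.3 K36R and H3.1 K36R exceeded that library by 1.13 and 1.43.

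**Figure D3:**
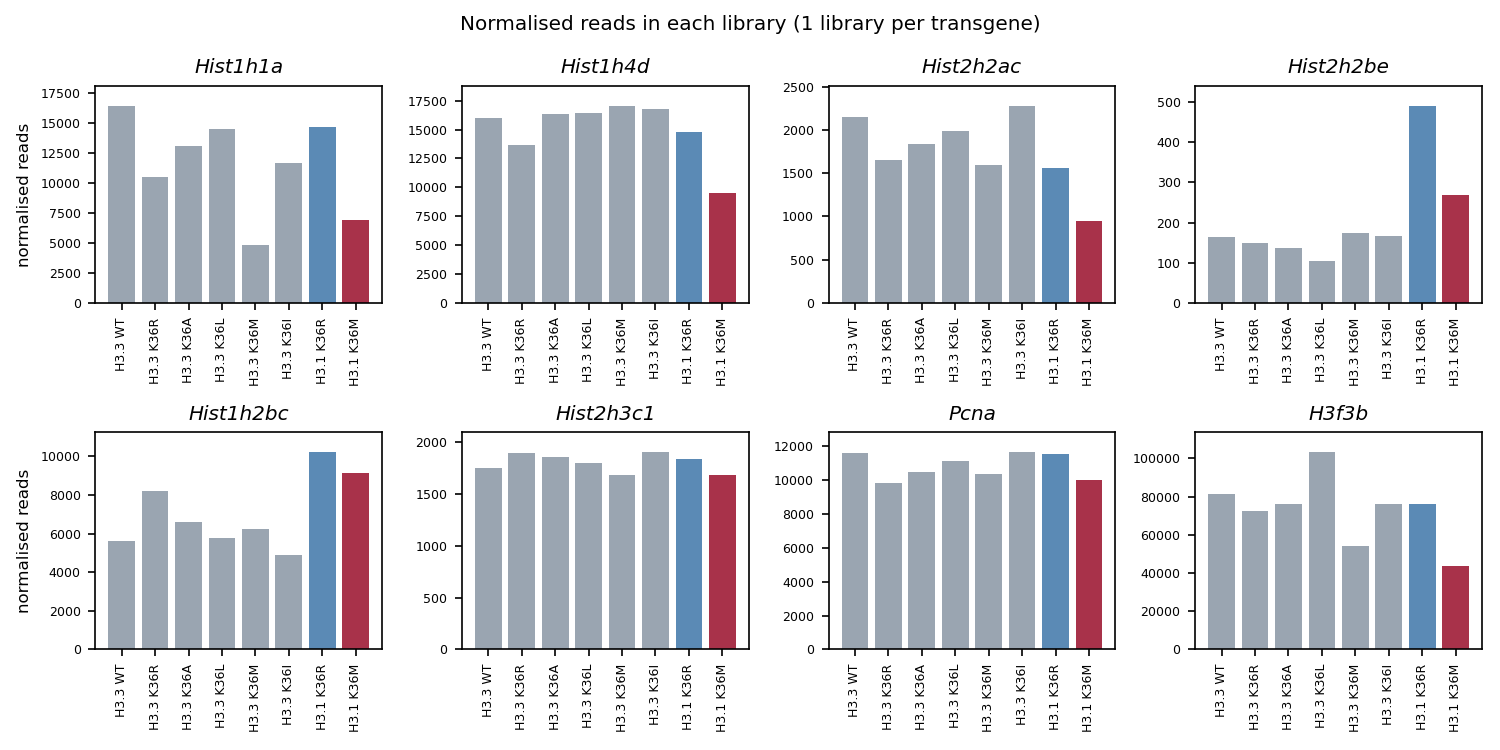
Normalised reads (vertical axis, starting at 0, its own scale in each panel) in the 8 libraries (horizontal axis) for 6 histone genes and for Pcna and H3f3b. Each bar is 1 library, with H3.3 libraries in grey, H3.1 K36R in blue and H3.1 K36M in red. Hist1h1a is lowest in H3.3 K36M at 4833, Hist2h2be highest in H3.1 K36R at 491, and Hist2h3c1 lies between 1681 and 1901.

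H2A forms dimers with H2B in the nucleosome core. Of the H2A genes, Hist2h2aa2, Hist1h2ak and Hist1h2ao had the most reads. Hist2h2aa2 had 6752, 5637, 6536, 6774, 5595 and 6624 normalised reads with H3.3 and 5841 and 3763 with H3.1. Hist1h2ak had 5400, 4472, 5424, 5183, 5076 and 5191 normalised reads with H3.3 and 5447 and 3065 with H3.1. Hist1h2ao had 4938, 4257, 5277, 5114, 4899 and 5160 normalised reads with H3.3 and 5595 and 3024 with H3.1. All 3 were lowest in H3.1 K36M, with differences of -0.62, -0.81 and -0.86 from H3.1 K36R. Next to them, Hist1h2ah had 1758, 1466, 1753, 1499, 1526 and 1632 normalised reads with H3.3 and 2025 and 999 with H3.1, with the H3.1 pair at both ends of its range. Hist2h2ac had 2153, 1658, 1844, 1987, 1601 and 2282 normalised reads with H3.3 and 1562 and 942 with H3.1, where H3.1 K36R too was below all 6 H3.3 libraries. The remaining H2A genes of the Hist1 cluster (Hist1h2ab, Hist1h2ae, Hist1h2af, Hist1h2ag, Hist1h2ai and Hist1h2an) were each lowest in H3.1 K36M, with differences of -0.90 to -0.62 from H3.1 K36R. Hist1h2ac, Hist2h2ab and Hist3h2a had their lowest values in H3.3 WT, H3.3 K36L and H3.3 K36M.

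Among H2B genes, Hist2h2bb, Hist1h2bg and Hist1h2bq held the most reads. Hist2h2bb had 25484, 19911, 23258, 23207, 22200 and 23566 normalised reads with H3.3 and 21400 and 13418 with H3.1. Hist1h2bg had 19346, 19335, 20561, 19731, 19736 and 18972 normalised reads with H3.3 and 23944 and 15448 with H3.1. Hist1h2bq had 10247, 10143, 11176, 10348, 11288 and 10387 normalised reads with H3.3 and 12052 and 8320 with H3.1. H3.1 K36M was again lowest, and the 6 H3.3 libraries of Hist1h2bg spanned only 18972 to 20561. Hist1h2bh had 6415, 5116, 6075, 6034, 4987 and 5664 normalised reads with H3.3 and 7035 and 3422 with H3.1. Hist1h2bk had 4713, 4781, 5015, 5200, 4804 and 4325 normalised reads with H3.3 and 5986 and 3145 with H3.1. Both were lowest in H3.1 K36M, with differences of -1.01 and -0.90 from H3.1 K36R. Hist1h2bb, Hist1h2be, Hist1h2bf, Hist1h2bj, Hist1h2bl, Hist1h2bm and Hist1h2bn were also lowest in H3.1 K36M, with differences of -0.97 to -0.62 from H3.1 K36R.

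A pair of H2B genes were high in both H3.1 libraries. Hist2h2be had 163, 148, 137, 105, 175 and 166 normalised reads with H3.3 and 491 and 268 with H3.1. Hist1h2bc had 5616, 8194, 6576, 5785, 6242 and 4885 normalised reads with H3.3 and 10216 and 9123 with H3.1. For each, the lower H3.1 library lay above the highest H3.3 library. Hist1h2bp was highest in H3.1 K36R, at 1709 against 751 to 1081 in the other 7 libraries. The scarce genes Hist3h2ba and Hist3h2bb-ps, the latter a processed pseudogene in the annotation, spanned 26.6 to 101 and 26.3 to 83.4 normalised reads.

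H3 pairs with H4 to form the tetramer at the centre of the nucleosome. In mouse, Hist1h3a, Hist1h3g, Hist1h3h and Hist1h3i encode H3.1, and the other H3 members encode H3.2, which differs from it in a single residue. Hist1h3f, Hist1h3e and Hist1h3d had the most reads. Hist1h3f had 7523, 5786, 7379, 6716, 6525 and 7759 normalised reads with H3.3 and 6863 and 3923 with H3.1. Hist1h3e had 6638, 5012, 6119, 5879, 6101 and 6487 normalised reads with H3.3 and 6553 and 3719 with H3.1. Hist1h3d had 5781, 4698, 5530, 5327, 5338 and 5798 normalised reads with H3.3 and 5506 and 3670 with H3.1. H3.1 K36R fell inside the range of the H3.3 libraries for all 3, and H3.1 K36M lay below it.

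Among the genes for H3.1 itself, Hist1h3a had 4566, 3824, 3959, 5335, 3134 and 4063 normalised reads with H3.3 and 6544 and 3752 with H3.1. It was lowest in H3.3 K36M and highest in H3.1 K36R, unlike Hist1h3h with 1858, 1562, 1781, 1715, 1631 and 1818 normalised reads with H3.3 and 1606 and 958 with H3.1. Hist1h3g and Hist1h3i were lowest in H3.1 K36M, at 2567 and 2583. From the Hist2 cluster, Hist2h3b had 1831, 1251, 1555, 1779, 1484 and 1892 normalised reads with H3.3 and 1408 and 837 with H3.1 and Hist2h3c2 had 4081, 3112, 4035, 4034, 3612 and 4432 normalised reads with H3.3 and 2961 and 2484 with H3.1, with both H3.1 libraries low in Hist2h3c2. Hist1h3b and Hist1h3c differed by -0.44 and -0.49 between H3.1 K36M and H3.1 K36R. Hist2h3c1 varied least of the H3 genes, with 1744, 1894, 1859, 1794, 1684 and 1901 normalised reads with H3.3 and 1834 and 1681 with H3.1.

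H4 genes all encode the same protein. Hist1h4d, Hist1h4m and Hist1h4h had the most reads. Hist1h4d had 16001, 13682, 16329, 16441, 17065 and 16753 normalised reads with H3.3 and 14799 and 9509 with H3.1. Hist1h4m had 8700, 7773, 8593, 8847, 9553 and 9347 normalised reads with H3.3 and 7284 and 5107 with H3.1. Hist1h4h had 7299, 7090, 7673, 8070, 8127 and 7593 normalised reads with H3.3 and 7493 and 4833 with H3.1. H3.1 K36M was lowest in each, and in Hist1h4m H3.1 K36R was the second lowest library. Hist1h4n had 2823, 2284, 2654, 2557, 2887 and 2641 normalised reads with H3.3 and 2117 and 1565 with H3.1, in the same order at its low end. Hist1h4a had 5644, 4765, 5461, 5518, 4720 and 4889 normalised reads with H3.3 and 5365 and 2931 with H3.1, with 7 libraries between 4720 and 5644.

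The H4 genes outside the Hist1 cluster showed the widest range. Hist4h4 had 5451, 3696, 4245, 5494, 3429 and 5076 normalised reads with H3.3 and 3999 and 2037 with H3.1. Hist2h4 had 2193, 1622, 1762, 2098, 1965 and 2226 normalised reads with H3.3 and 1514 and 895 with H3.1. H3.1 K36M differed from H3.3 WT by -1.37 and -1.19 in them, more than in any other H4 gene. Hist1h4b, Hist1h4c, Hist1h4f, Hist1h4j and Hist1h4k differed by -0.81 to -0.57 between H3.1 K36M and H3.1 K36R. Hist1h4i differed least, at 3078 in H3.1 K36M and 2959 to 3776 in the other 7 libraries.

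Levels of different genes can be compared only per length. Per 1000 bases of the RefSeq span, over the 59 members with a span of up to 1000 bases, the mean of the 8 libraries was highest for Hist2h2bb (43723 normalised reads), Hist1h2bg (42315), Hist1h4d (37494) and Hist1h1c (37458). Hist1h1d (32192), Hist1h1e (27615) and Hist1h4m (20125) came next. The highest H3 gene on this scale was Hist1h3d (10329) and the highest H2A gene Hist2h2aa2 (9967). Lowest of those past the filter were Hist2h2ab (335), Hist3h2ba (125), Hist1h1t (103) and Hist3h2bb-ps (95.7). Sequence shared with other annotated genes, matched on either strand, limits this order. For 30 of the 62 genes over 50% of their 50-base stretches also occur in another annotated gene. The share was 100% for Hist2h2bb, Hist2h2aa2, Hist2h3b and Hist2h3c1. Their exons overlap those of Gm20628, Gm20632 or Gm20634, which are not among the histone genes read here. The sources used here do not say how reads placed in several genes were counted, so values of single members are uncertain to that extent. The order also depends on the length used. Hist1h1d spans 776 bases in RefSeq, but its longest GENCODE transcript has 7425 bases, and the annotation used for counting was not given.

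The class comparison asked whether K36M and K36I, described in the literature as inhibitors of H3K36 methyltransferases, shift these genes. With limma, 1887 of 14215 genes passed at adjusted p below 0.05 (13.3%), 917 higher and 970 lower, and 0 of the 62 histone genes did. At an unadjusted p below 0.05 there were 4 of 62, against 28.3% of all genes. No histone gene had classes that did not overlap, against 21.5% of all genes. The median difference of the histone genes was -0.18, with 59 of 62 below 0, and that of all genes was -0.01.

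The largest class difference was that of Hist1h1a, with -0.89 (SE 0.26, adjusted p = 0.0537) by limma. Its 3 libraries with K36M or K36I averaged 7814 ± 3522 normalised reads (SD, n = 3) and the other 5 averaged 13846 ± 2196 (SD, n = 5). With 1 library left out its difference ranged from -1.23 without H3.3 K36I (adjusted p = 0.00966 by limma, where 8.76% of all genes passed) to -0.60 without H3.3 K36M (adjusted p = 0.169 by limma), and it passed only without H3.3 K36I. The other H1 gene named by size was Hist1h1b, with -0.30 (SE 0.13, adjusted p = 0.179). In H4 these were Hist4h4 with -0.44 (SE 0.26, adjusted p = 0.316) and Hist1h4a with -0.38 (SE 0.16, adjusted p = 0.154), and in H2B Hist1h2bh with -0.40 (SE 0.16, adjusted p = 0.145) and Hist1h2bk with -0.34 (SE 0.14, adjusted p = 0.151). None of these passed limma's test. Hist1h3a (-0.38, SE 0.18, adjusted p = 0.204), Hist2h2aa2 (-0.27, SE 0.16, adjusted p = 0.324), Hist1h2ah (-0.29, SE 0.16, adjusted p = 0.286) and Hist1h3h (-0.24, SE 0.18, adjusted p = 0.425) did not pass limma's test either. The median over histone genes depended on 1 library: without H3.1 K36M it was 0.02, and over the 6 H3.3 libraries alone it was 0.05.

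The comparison of backbones asked whether the histone genes differ between lines with an H3.1 and an H3.3 transgene, with class as a covariate. Of all genes 11.0% passed limma's test, and 4 of 62 histone genes did, 2 in each direction. Hist2h2be rose by 0.92 (SE 0.19, adjusted p = 0.0274) and Hist1h2bc by 0.68 (SE 0.15, adjusted p = 0.0327) in the H3.1 libraries, by limma. Mean normalised reads of Hist2h2be were 380 ± 158 (SD, n = 2) with H3.1 and 149 ± 25.3 (SD, n = 6) with H3.3, and those of Hist1h2bc were 9669 ± 773 (SD, n = 2) and 6216 ± 1128 (SD, n = 6). The H4 genes Hist1h4n and Hist1h4m fell, with differences of -0.50 (SE 0.13, adjusted p = 0.0447) and -0.51 (SE 0.13, adjusted p = 0.0486) by limma. Their means were 1841 ± 390 (SD, n = 2) against 2641 ± 214 (SD, n = 6) for Hist1h4n and 6196 ± 1539 (SD, n = 2) against 8802 ± 629 (SD, n = 6) for Hist1h4m.

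All 13 H4 genes had a difference below 0 in this comparison, with a median of -0.44, and 9 had an unadjusted p below 0.05. Over all types 16 of the 62 histone genes were lower at that level, against 15.3% of all genes. The median was -0.31 in H3 genes, -0.09 in H2A, -0.06 in H2B and -0.01 in H1 genes. Named by size but not passing limma's test were Hist2h4 (-0.68, SE 0.19, adjusted p = 0.0551), Hist4h4 (-0.57, SE 0.23, adjusted p = 0.145), Hist2h2ac (-0.57, SE 0.18, adjusted p = 0.0807), Hist2h2aa2 (-0.38, SE 0.14, adjusted p = 0.107), Hist2h3b (-0.50, SE 0.20, adjusted p = 0.137), Hist2h3c2 (-0.49, SE 0.14, adjusted p = 0.0555), Hist1h1t (0.70, SE 0.26, adjusted p = 0.120) and Hist1h1e (-0.29, SE 0.18, adjusted p = 0.302). The 4 calls depended on single libraries: 31 histone genes passed without H3.1 K36R (8.07% of all genes) and 1 without H3.1 K36M (1.29%), with medians over the histone genes of -0.63 and 0.15. The fits without H3.1 K36R or without H3.1 K36M each left 1 H3.1 library. Their counts therefore describe that library and cannot test the backbone. Without H3.3 WT (5.56%) or without H3.3 K36I (4.04%), 0 passed. Without H3.1 K36R and without H3.1 K36M the differences were 0.45 and 1.31 for Hist2h2be, 0.71 and 0.65 for Hist1h2bc, -0.77 and -0.27 for Hist1h4n, and -0.87 and -0.21 for Hist1h4m.

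How the class difference of the histone genes varied with the backbone can be stated as the class difference with H3.1 minus that with H3.3. This fit was added after the low values of H3.1 K36M had been seen and restates them, so its p-values are no further support. Its median over the histone genes was -0.72, with 61 of 62 below 0, and 0.01 over all genes. With limma 0 of 14215 genes passed (0%), among them 0 histone genes, and without the filter on low values 798 genes passed, 10 of them histone genes, all lower, against 3.47% of all genes. At an unadjusted p below 0.05, 50 of the 62 histone genes were lower, against 4.87% of all genes lower. The smallest adjusted p by limma among them was 0.199, for Hist1h2bb at -0.91 (SE 0.14). Hist1h2bn at -0.89 (SE 0.14), Hist1h1e at -0.91 (SE 0.15) and Hist1h2bf at -0.88 (SE 0.15) came next. The exception in sign was Hist1h2bc at 0.06 (SE 0.32). Each class of H3.1 is 1 library, and the members were read in the same libraries, so 62 genes are not 62 observations of a difference.

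Single mutants were compared with H3.3 WT by counting genes that differed by at least 1. H3.1 K36M had 5 such histone genes of 62, all lower (Hist1h1a, Hist2h2ac, Hist2h3b, Hist2h4 and Hist4h4). Of all 14215 genes, 601 were lower by as much there, and 10.3% differed in either direction. H3.3 K36M had 1, Hist1h1a, which was lower, against 627 of all genes lower and 8.69% in either direction. H3.3 K36I had 0 against 7.63%. H3.1 K36R had 2 (Hist1h1t and Hist2h2be), both higher, against 296 of all genes higher and 3.33% in either direction. H3.3 K36R had 1 higher, Hist1h1t, against 151 of all genes higher and 1.76% in either direction. H3.3 K36A and K36L had 0 against 2.08% and 1.03%. Between the H3.1 libraries 3 were lower by at least 1 in H3.1 K36M (Hist1h1a, Hist1h2bh and Hist1h2bp). There 443 of all genes were lower by as much, and 7.02% differed in either direction. Most histone gene differences were thus smaller than 1 in size, and many genes lay on the same side.

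DNA replication genes are expressed in the same phase of the cell cycle, and 52 of them were read beside the histone genes. In H3.1 K36M their median difference was 0.00 from H3.3 WT and -0.01 from H3.1 K36R, and their summed reads were 105% of H3.3 WT. The median covers changes both ways: single genes ranged from -0.84 to 1.03 from H3.3 WT there, and 26 of the 52 were below it. In H3.3 K36R their median was -0.20 and their sum 87.4%, next to -0.22 and 87.3% for the histone genes. Pcna, the sliding clamp of DNA polymerases, had 11625, 9836, 10494, 11153, 10379 and 11647 normalised reads with H3.3 and 11525 and 9995 with H3.1. Its class difference was -0.03 (SE 0.08, adjusted p = 0.840) and its backbone difference -0.01 (SE 0.09, adjusted p = 0.966), by limma. In H3.1 K36M Pcna stood at 9995 normalised reads against 11525 in H3.1 K36R, a difference of -0.20.

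**Figure D4:**
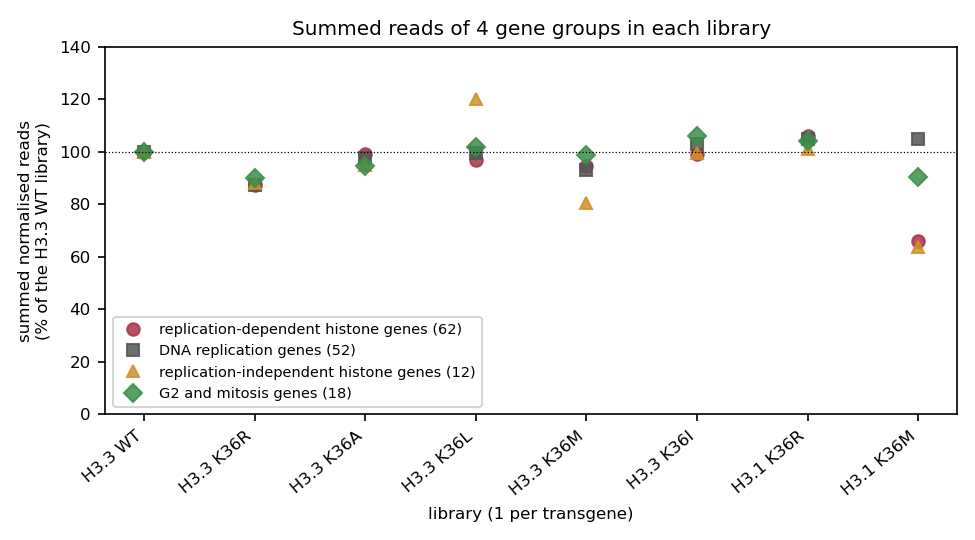
Summed normalised reads as a percentage of the H3.3 WT library (vertical axis, starting at 0) in the 8 libraries (horizontal axis) for 4 groups of genes. Each marker is 1 group in 1 library. In H3.1 K36M the replication-dependent and replication-independent histone genes stand at 65.9% and 63.6%, G2 and mitosis genes at 90.5% and DNA replication genes at 105%. In H3.3 WT most of the replication-independent sum is H3f3b. The median differences of these 2 histone groups in H3.1 K36M from H3.3 WT were -0.60 and -0.20.

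Among the 52 replication genes, 0 fell in the class comparison, and Cdc7, an origin-firing kinase, rose by 0.40 (SE 0.08, adjusted p = 0.0170), by limma. In the backbone comparison 6 rose and 2 fell. Rrm2, a subunit of ribonucleotide reductase, rose by 0.91 (SE 0.17, adjusted p = 0.0185), Orc1 of the origin recognition complex by 0.50 (SE 0.11, adjusted p = 0.0314), Ccne2 (cyclin E2) by 0.50 (SE 0.13, adjusted p = 0.050) and Gins3 of the replicative helicase by 0.42 (SE 0.10, adjusted p = 0.0325), by limma. The other 2 were Rrm1, the partner of Rrm2, and E2f1, a transcription factor of S-phase genes, with 0.41 (SE 0.06, adjusted p = 0.0110) and 0.36 (SE 0.09, adjusted p = 0.0445) by limma. Pold2, a subunit of DNA polymerase delta, and Dut, which degrades dUTP, fell, with -0.70 (SE 0.14, adjusted p = 0.0242) and -0.43 (SE 0.10, adjusted p = 0.0314) by limma. Rrm2 had 6747, 7359, 6295, 7182, 5409 and 5211 normalised reads with H3.3 and 9936 and 13912 with H3.1, so it was highest in the library where the histone genes were lowest.

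Of 20 genes that transcribe, process or degrade histone messenger RNA, the median in H3.1 K36M was -0.11 from H3.3 WT and 0.00 from H3.1 K36R. Slbp had 6729, 5753, 7039, 7468, 5965 and 6699 normalised reads with H3.3 and 6859 and 7217 with H3.1, with a backbone difference of 0.10 (SE 0.11, adjusted p = 0.552) by limma. Npat had 4951, 4656, 4854, 5082, 4127 and 4829 normalised reads with H3.3 and 5484 and 5989 with H3.1 and was highest in H3.1 K36M. In this list 2 genes fell in the class comparison: Ccna2 (cyclin A2) by -0.39 (SE 0.08, adjusted p = 0.0126) and Upf1, a helicase of RNA decay, by -0.47 (SE 0.11, adjusted p = 0.0220), by limma. In the backbone comparison 1 fell, Lsm10 of the U7 particle, with -0.37 (SE 0.09, adjusted p = 0.0408) by limma.

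Histone genes that are expressed outside S phase were lower in H3.1 K36M as well. Of 12 such genes, 10 were below H3.3 WT and 10 below H3.1 K36R in that library, with medians of -0.20 and -0.48. H3f3b had 81513, 72642, 75936, 103244, 54032 and 76221 normalised reads with H3.3 and 76113 and 43612 with H3.1. H3f3a had 9361, 7888, 8916, 7720, 8170 and 7441 normalised reads with H3.3 and 11932 and 8434 with H3.1. H2afz, which encodes H2A.Z, had 2205, 2185, 2157, 2115, 1902 and 1980 normalised reads with H3.3 and 2649 and 1594 with H3.1. H3f3b and H2afz were lowest in H3.1 K36M, and H3f3a was lowest in H3.3 K36I. None of the 12 passed limma's test in either comparison. The largest differences were those of H3f3b (-0.52, SE 0.19, adjusted p = 0.106) and H1fx (-0.32, SE 0.14, adjusted p = 0.187) between classes and of H2afy2 (-0.34, SE 0.16, adjusted p = 0.198) and H3f3b (-0.32, SE 0.19, adjusted p = 0.290) between backbones, by limma. Whether reads of a transgene were counted in the H3 genes was not tested.

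In 18 genes of G2 and mitosis the H3.1 K36M median was -0.05 from H3.3 WT and -0.17 from H3.1 K36R. Of these, Aurkb and Cdk1 rose between backbones, by 0.34 (SE 0.08, adjusted p = 0.0376) and 0.26 (SE 0.07, adjusted p = 0.0465) by limma, and 0 passed between classes, where Bub1 (0.27, SE 0.08, adjusted p = 0.0622) and Plk1 (-0.22, SE 0.06, adjusted p = 0.0507) differed most. RNAs outside the histone genes that carry no poly(A) tail were read to see how such RNAs were captured. Their 8 genes past the filter held 2.25% to 5.95% of a library's reads, with medians from H3.3 WT of -0.41 for H3.1 K36M and -0.40 for H3.1 K36R and -0.03 between those 2 libraries. Of these, Rmrp and Scarna13 fell between backbones, with -0.62 (SE 0.15, adjusted p = 0.0366) and -0.51 (SE 0.11, adjusted p = 0.0266) by limma, and 0 passed between classes, where Rn45s (-0.44, SE 0.39, adjusted p = 0.514) and Rnu12 (0.38, SE 0.19, adjusted p = 0.222) differed most. Their backbone median was -0.40 and that of H4 genes -0.44, but these arose differently in the 2 H3.1 libraries. From H3.3 WT the H4 medians were -0.11 in H3.1 K36R and -0.84 in H3.1 K36M, while the RNAs without a tail were alike in both. The part of RNA capture in the backbone difference was not tested.

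The ends of the annotated transcripts were compared because some histone genes are also annotated with a poly(A) signal. In 16 of the 62 genes a transcript carried AATAAA or ATTAAA in its last 50 bases. Between the H3.1 libraries these 16 and the other 46 had the same median, -0.67. From H3.3 WT the medians in H3.1 K36M were -0.33 and -0.69, and in H3.1 K36R 0.24 and 0.05. The 5 H2B genes with a RefSeq span over 1000 bases (Hist1h2bc, Hist1h2be, Hist1h2bp, Hist1h2bq and Hist2h2be) had a median of 0.66 in H3.1 K36R from H3.3 WT, against 0.07 in the other 57. Hist2h2be and Hist1h2bc, the 2 members that rose with H3.1, were both among these 5, and neither had a stem-loop match in its annotated transcripts.

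Most histone transcripts are short and rich in G and C, so other genes alike in these respects were read between the H3.1 libraries. Some members are not: the longest annotated transcript of Hist1h1d has 7425 bases and 39.8% GC. The 723 other genes whose longest transcript spans up to 1000 bases had a median of -0.02. The 4872 other genes with a GC content between the members' quartiles, 51.2% and 61.6%, had a median of 0.02. The part of length or GC content in the difference between the H3.1 libraries was not tested. Members that share over 50% of their 50-base stretches with another gene had a median of -0.67, and the rest -0.68. Exons of 21 members overlap those of another annotated gene, in 18 cases on the opposite strand, and the sources used here do not say whether counting used strand. None of the 4 members that passed between backbones overlaps another gene, but Hist1h4m and Hist1h4n are among the 30 that share sequence.

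Promoters are shown for Hist1h1a, the H1 gene lowest in H3.3 K36M, beside Hist1h1e, and for Hist1h4d, the most abundant H4 gene. The shared intervals between Hist2h2ac and Hist2h2be and between Hist1h2ac and Hist1h2bc are shown because these pairs parted from the others against H3.3 WT. Sequences are from RefSeq on GRCm38.p6, end at the base before the annotated start and were cut where the neighbouring gene begins. Capitals mark matches, on either strand, to the TATA box (TATAAA), the CCAAT box (CCAAT), the octamer (ATTTGCAT), the H1 AC box (AAACACA) and the H4 element (GGTCCG), and no match in them overlaps another.
Hist1h1a, chr13:23763418-23763667, plus strand: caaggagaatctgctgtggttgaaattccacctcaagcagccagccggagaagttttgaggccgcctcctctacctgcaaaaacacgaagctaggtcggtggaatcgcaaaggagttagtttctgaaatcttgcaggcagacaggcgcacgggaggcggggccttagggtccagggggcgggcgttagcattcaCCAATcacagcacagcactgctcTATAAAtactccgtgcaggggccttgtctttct
Hist1h1e, chr13:23622559-23622808, minus strand: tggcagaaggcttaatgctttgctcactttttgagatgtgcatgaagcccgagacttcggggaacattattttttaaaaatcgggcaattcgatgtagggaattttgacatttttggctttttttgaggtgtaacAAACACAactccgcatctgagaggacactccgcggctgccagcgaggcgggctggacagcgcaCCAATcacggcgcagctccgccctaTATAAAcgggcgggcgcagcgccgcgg
Hist1h4d, chr13:23581318-23581567, plus strand: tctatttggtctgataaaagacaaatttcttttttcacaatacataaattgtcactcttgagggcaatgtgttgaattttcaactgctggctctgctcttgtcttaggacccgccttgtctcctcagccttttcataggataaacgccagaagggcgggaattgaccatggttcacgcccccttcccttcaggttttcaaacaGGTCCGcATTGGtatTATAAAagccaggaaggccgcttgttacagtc
Hist2h2ac to Hist2h2be, chr3:96220881-96221071, minus strand: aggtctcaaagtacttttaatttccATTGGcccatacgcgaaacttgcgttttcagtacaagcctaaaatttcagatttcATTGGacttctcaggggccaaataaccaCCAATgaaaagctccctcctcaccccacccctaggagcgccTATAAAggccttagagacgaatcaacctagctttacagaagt
Hist1h2ac to Hist1h2bc, chr13:23683960-23684198, minus strand: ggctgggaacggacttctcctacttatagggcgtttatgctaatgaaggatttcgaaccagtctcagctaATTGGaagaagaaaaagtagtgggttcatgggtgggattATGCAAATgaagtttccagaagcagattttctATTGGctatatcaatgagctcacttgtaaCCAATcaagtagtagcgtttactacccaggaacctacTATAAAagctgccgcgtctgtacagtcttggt

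RefSeq promoters matched 56 of the 62 genes by symbol or alias. In the 250 bases before the start, AAACACA was found in 5 of 6 H1 promoters, the exception being Hist1h1a, against 7.20% of all 27025 genes. GGTCCG was found in 9 of 12 H4 promoters, against 7.69% of all genes. CCAAT was in all 14 H2A and all 14 H2B promoters (37.5% of all genes) and ATTTGCAT in 6 of each (1.81%). Windows of neighbouring H2A and H2B genes can overlap, so the same site can count for both. Unlike the sequences printed above, the counted windows were not cut where the neighbouring gene begins. TATAAA was in 27 of the 56 (14.3%). These matches describe the letters of the windows. Hist1h1a, the H1 gene without AAACACA in its window, was also the member whose difference in H3.3 K36M was the largest. Over all types only 7 of the 56 genes had AAACACA. A link between this motif and that difference was not tested.

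Genes for H2A and H2B often lie head to head, and 10 such pairs, with starts 164 to 249 bases apart, had both partners past the filter. Between the H3.1 libraries all 20 of these genes were lower in H3.1 K36M, and the partners differed from each other by 0.01 to 0.34. Hist2h2ac and Hist2h2be lay at -0.66 and -0.67 there, but at -1.10 and 0.49 from H3.3 WT, so these neighbours lay on opposite sides of H3.3 WT and differed alike between the H3.1 libraries. Hist1h2ac and Hist1h2bc lay at 0.22 and 0.69 from H3.3 WT, the one pair in which both partners were above it in H3.1 K36M. Their differences from H3.1 K36R were -0.50 and -0.16.

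**Figure D5:**
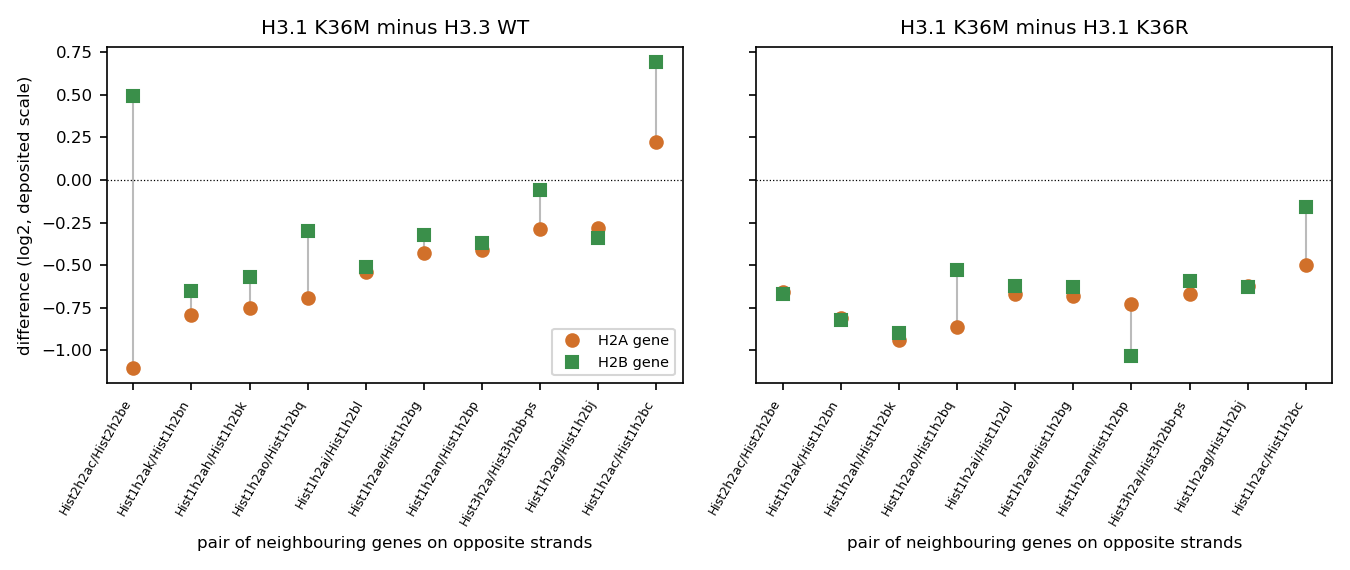
Difference of the H3.1 K36M library from H3.3 WT (left) and from H3.1 K36R (right) on the deposited log2 scale (vertical axis) for 10 head-to-head pairs (horizontal axis), with the H2A partner as a circle, the H2B partner as a square and a line joining them. Hist2h2ac and Hist2h2be lie at -1.10 and 0.49 on the left and at -0.66 and -0.67 on the right.

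Over the series, recovered depth was 61139941 to 68020958 reads in the H3.3 libraries. Markers of mesenchymal fibroblasts were abundant, with 11 of 12 past the filter and summed reads of 713949 to 1393757 a library. Their Fn1 fell by 1.01 and Twist1 rose by 0.47 between classes (adjusted p = 0.0167 and 0.0189, limma), and 0 passed between backbones, where Col3a1 (0.97, SE 0.36, adjusted p = 0.115) and Pdgfrb (0.45, SE 0.18, adjusted p = 0.139) differed most. Markers of other cell types were in part present. The leukocyte gene Cd68 and the endothelial gene Vwf passed the filter, at 101 to 241 and 77.6 to 244 normalised reads. The leukocyte gene Cd3e was at 0 in all libraries, Ptprc reached 7.89, the epithelial gene Epcam 2.19 and the endothelial gene Pecam1 20.5 normalised reads. Of 6 epithelial markers 2 passed the filter, Krt14 and Cdh1, with a summed level of 559 and 706 with H3.1 and 770 to 7836 with H3.3. Krt14, an epithelial keratin, was at 31.7 and 18.4 normalised reads in H3.1 K36R and K36M and 67.8 to 7403 with H3.3, and its part in the backbone difference was not tested. None of Cdh1, Krt14, Cd68 and Vwf passed limma's test in either comparison.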

How the data were processed

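The values are log2 numbers on the scale of DESeq2's variance-stabilising transformation, made and deposited by the authors as 1 table of 31276 genes in 8 libraries. Trimmomatic 0.32, STAR 2.3.0e, featureCounts 1.4.4, DESeq2 and build mm10 are named in the submitters' processing notes; gene annotation, strand and multi-read settings were not given in the sources used here. RNA was taken with Trizol and libraries were made with the Illumina TruSeq protocol, per the labels' protocols, which do not say how poly(A) tails entered the selection.

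The transformation was inverted from the lowest value of the table, 5.95, which stands for 0 reads; 100% of values gave whole reads within 0.001. Normalised reads are these reads over a size factor per library and carry no length correction. Low genes are compressed on the log2 scale, which understates their differences.

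Genes with a mean at least 1 above the lowest value were tested (14215) with limma 3.58.1 in R 4.3.3, two-sided, with an intensity trend and Benjamini-Hochberg adjustment over all of them; genes with an adjusted p under 0.05 were called. The class comparison set 3 libraries with K36M or K36I against 5, and the backbone comparison 2 with H3.1 against 6 with H3.3, with class as a covariate. Each transgene had 1 library, so p-values measure the spread between lines, which may be technical, and a mutant against H3.3 WT has no test. The interaction of class and backbone, and the fit without both H3.1 libraries, were added after the data had been seen. The remaining alternatives were no filter, a filter at 2, equal library medians, log2 of normalised reads plus 1, array weights, backbone as a covariate, K36M and K36R libraries alone, and each library left out. The fits were also run on simulated reads, drawn independently for each gene with the same relative spread. Variation between lines and genes that move together were not simulated, so that run does not show how the fits behave with them. No count test was run, since the table holds transformed values.

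The histone genes and the gene lists were chosen with earlier results of these data known. Every histone gene past the filter is named. The values of all libraries are given for the 3 highest of each type, the 2 of each type with the largest difference in each comparison, called genes and a few others chosen after their values were seen (Hist2h3c1 and Rrm2). From each list, called genes are named, or else the 2 with the largest difference. In addition, 1 called gene of the DNA replication list is not reported here. Transcript ends and overlaps came from GENCODE M21 and promoters from RefSeq, both on GRCm38. Tables were handled in Python 3.11.15 with pandas 2.3.3 and numpy 2.4.6, and figures drawn with matplotlib 3.10.9. Columns of other samples numbered 0.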

Additional observations from a re-analysis of the deposited data

Results flagged for a closer look

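Within the 6 H3.3 libraries and within the 5 libraries without K36M or K36I, a library was singled out where its gap to the nearest other library was large against the whole range of the group (Dixon's criterion). Of 76 groups tested, 8 had such a library. The criterion singles out about 1 in 20 independent groups by chance, but that rate does not apply here. Some of the genes were chosen by the size of their differences in these same libraries. The 2 groups of a gene also share libraries, and Hist1h2ak was counted in both. Values here are on the deposited log2 scale.

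Hist1h1a in H3.3 K36M stood at 12.27 among the H3.3 libraries, where the other 5 spanned 13.38 to 14.02. No other tested gene was singled out in H3.3 K36M or H3.3 K36I, which were tested among the H3.3 libraries only. H3.1 K36M belonged to neither kind of group, so it could not be singled out for any gene.

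In H3.3 K36R, 3 histone genes were singled out as low. Hist1h2ak stood at 12.17, against 12.37 to 12.44 in the other libraries without K36M or K36I and 12.34 to 12.44 in the other H3.3 libraries. Hist1h2ao stood at 12.10 against 12.29 to 12.40, and Hist1h4d at 13.75 against 13.98 to 14.07, both among the H3.3 libraries.

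In H3.1 K36R, 3 genes stood high among the libraries without K36M or K36I. Hist2h2be was at 9.25 against 7.72 to 8.09 in the other 4, Hist1h2bg at 14.55 against 14.25 to 14.34, and H2afz, the gene for H2A.Z, at 11.44 against 11.13 to 11.18.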

How the results depend on the processing

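With 1 library a transgene, no fit can tell a transgene from its line, and the results that involve H3.1 rest on 2 libraries with fewer reads than the H3.3 libraries. Among values of single genes under the alternatives, 274 kept their direction and side of the threshold, 31 lost the threshold, 10 passed it anew and 2 reversed. In the class comparison, 4074 genes passed with array weights, 2959 with backbone as a covariate and 1021 to 2084 with 1 library left out; the number of histone genes was 1 with array weights and 0 to 1 with 1 library left out, the 1 being Hist1h1a each time. The median difference of the histone genes there was -0.27 to 0.02 with 1 library left out, 0.02 being the value without H3.1 K36M, and 0.05 without both H3.1 libraries. Hist1h3h ranged from -0.41 to 0.02, turning without H3.1 K36M. In the backbone comparison, 414 genes passed with array weights, 12 with the K36M and K36R libraries alone and 183 (without H3.1 K36M) to 1934 with 1 library left out. The number of histone genes was 2 without a filter, 0 with array weights, 0 with the K36M and K36R libraries alone and 0 to 31 with 1 library left out; their median was -0.63 (without H3.1 K36R) to 0.15 (without H3.1 K36M), and Hist1h1e ranged from -0.79 to 0.12 in the same order. The 183 genes and the 31 histone genes came from fits that left 1 H3.1 library, so these counts cannot test the backbone. Of the 4 histone genes called in the backbone comparison, Hist2h2be lost the call in 5 of 14 alternatives, Hist1h2bc in 8, and Hist1h4m and Hist1h4n in 9 each. The fits that left 1 H3.1 library are among the 14. For the interaction of class and backbone, 798 genes and 10 histone genes passed without a filter and 0 with any library of H3.3 left out, while its median stayed between -0.77 and -0.66; no interaction could be fitted without an H3.1 library. The causes of these changes were not tested. No paired analysis was possible because the labels give no replicate number that libraries share, beyond the fit of the K36M and K36R libraries alone, which pairs them by substitution and gave a histone median of -0.15 in the backbone comparison.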
